A study of Rattus norvegicus with 10 samples.

Results

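The suppressor of cytokine signalling (SOCS) family comprises the 8 genes Socs1, Socs2, Socs3, Socs4, Socs5, Socs6, Socs7 and Cish, which were described across testes of Zucker rats. They were found by symbol: a probe set was taken where its only gene symbol was one of the 8. Each gene had exactly 1 such probe set, so all 8 were measured, out of 18166 named genes on the array. The rule used no measured value apart from the choice of the brightest probe set, which was never needed here.

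SOCS proteins are the feedback brakes of cytokine signalling. A cytokine binds its receptor, the receptor-bound JAK kinases phosphorylate STAT transcription factors, and the STATs switch on Cish, Socs1, Socs2 and Socs3 among other targets. Each SOCS protein holds an SH2 domain that docks on phosphotyrosine and a SOCS box that recruits elongins and a cullin to tag the bound receptor or kinase for degradation. SOCS3 is known as the brake on the leptin and interleukin-6 family receptors, SOCS2 on the growth hormone receptor, and SOCS4 to SOCS7 are better known for acting on receptor tyrosine kinases and insulin signalling.

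RNA was hybridised to 10 Affymetrix rat arrays, 1 per sample, and the values are log2 expression summarised by RMA, so a difference of 1 is a 2-fold change. There were 4 arrays of under-developed testes and 4 of normal testes, both from obese rats, and 2 of normal testes from lean rats. All were labelled Zucker (fa/fa), a strain in which obese animals carry a mutated leptin receptor, and as sexually mature at 14 weeks of age. Lean samples carry the fa/fa model label too, together with protocol text on obese animals, which leaves the lean genotype unsettled. The titles call the samples biological replicates, but whether they are from separate animals is not stated. The p-values set group differences only against the spread among these samples. Whole testis RNA cannot tell fewer cells of a type apart from less RNA per cell.

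One of the under-developed arrays went with the normal testes. Over all genes, the mean correlation with the normal arrays was 0.856, 0.946 and 0.731 for under-developed replicates 1, 2 and 3, and 0.995 for replicate 4. Spermatid markers (12 of 12 measured), which define the mature testis, had a mean log2 level of 7.87 to 11.94 in under-developed, 11.97 to 12.02 in normal obese and 11.96 to 12.01 in normal lean testes. The highest under-developed value was that of replicate 4. Each result is therefore given for every under-developed array, and tests are given with all arrays and without replicate 4. Replicate 4 was singled out after its values were seen, so calls made without it are not independent evidence.

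Upstream sequences were searched for the motif of STAT proteins, since several members are known STAT targets. The RefSeq promoter table (build GRCr8) held 5 of the 8 genes, namely Socs1, Socs3, Socs4, Socs6 and Cish, in windows from 250 bases before to 50 after the annotated start. The STAT motif TTCNNNGAA, which reads the same on both strands, occurred 4 times in the Cish window, at 241, 230, 136 and 119 bases before the start, and once in that of Socs1, 196 bases before it. It occurred 0 times in the windows of Socs3, Socs4 and Socs6. Of all 33469 rat windows of that length, 8.87% held at least 1 match, 0.547% at least 2, and 2 windows at least 4. The first 250 bases are shown for Cish and Socs1, which hold the motif, and for Socs4, which does not, at chr8:116850719-116850968, chr10:5389324-5389573 and chr15:23002880-23003129, all on the plus strand and 5′ to 3′, with motif matches in capitals. A match is a description of letters, and binding was not measured. Bases outside these windows and other forms of the motif were not searched. A count of 0 therefore does not show that a gene lacks a STAT site.
Cish: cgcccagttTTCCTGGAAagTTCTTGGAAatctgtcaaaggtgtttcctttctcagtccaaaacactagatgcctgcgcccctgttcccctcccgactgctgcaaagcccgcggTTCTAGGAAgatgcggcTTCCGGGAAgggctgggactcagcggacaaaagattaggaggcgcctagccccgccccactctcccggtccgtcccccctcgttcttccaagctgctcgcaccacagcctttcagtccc
Socs1: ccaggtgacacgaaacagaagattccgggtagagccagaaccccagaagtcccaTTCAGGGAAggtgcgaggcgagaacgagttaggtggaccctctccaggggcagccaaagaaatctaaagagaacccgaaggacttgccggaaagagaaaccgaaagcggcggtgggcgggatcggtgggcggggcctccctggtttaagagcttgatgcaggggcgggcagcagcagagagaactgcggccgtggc
Socs4: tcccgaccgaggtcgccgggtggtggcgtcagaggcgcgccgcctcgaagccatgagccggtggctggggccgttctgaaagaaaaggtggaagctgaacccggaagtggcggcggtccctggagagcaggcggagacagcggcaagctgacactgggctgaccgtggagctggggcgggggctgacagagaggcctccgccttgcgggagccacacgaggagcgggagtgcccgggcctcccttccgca

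The family split in the under-developed testes. In replicates 1 to 3, Socs3 averaged 1.17 log2 above the normal obese mean, Cish and Socs6 lay above it by less, Socs2, Socs4, Socs5 and Socs7 lay below it by −0.74 (Socs4) to −1.5 log2 (Socs7), and Socs1 averaged −0.16 log2 from it. With all arrays, limma called 0 of the 8 at an adjusted p under 0.05, as it called 0 of all genes (0.0%), and 5 of the 8 (Socs2, Socs3, Socs4, Socs5 and Socs7) had an unadjusted p under 0.05, beside 46.6% of all genes. Without replicate 4, 3 of the 8 rose (Socs3, Socs6 and Cish) and 4 fell (Socs2, Socs4, Socs5 and Socs7), where 29.6% of all genes rose and 26.4% fell. Calls were common across the array in that fit, so a single call says little about the family as such. The median difference of the 8 was −0.45 log2 in that fit, beside 0.07 over all genes.

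**Figure D1:**
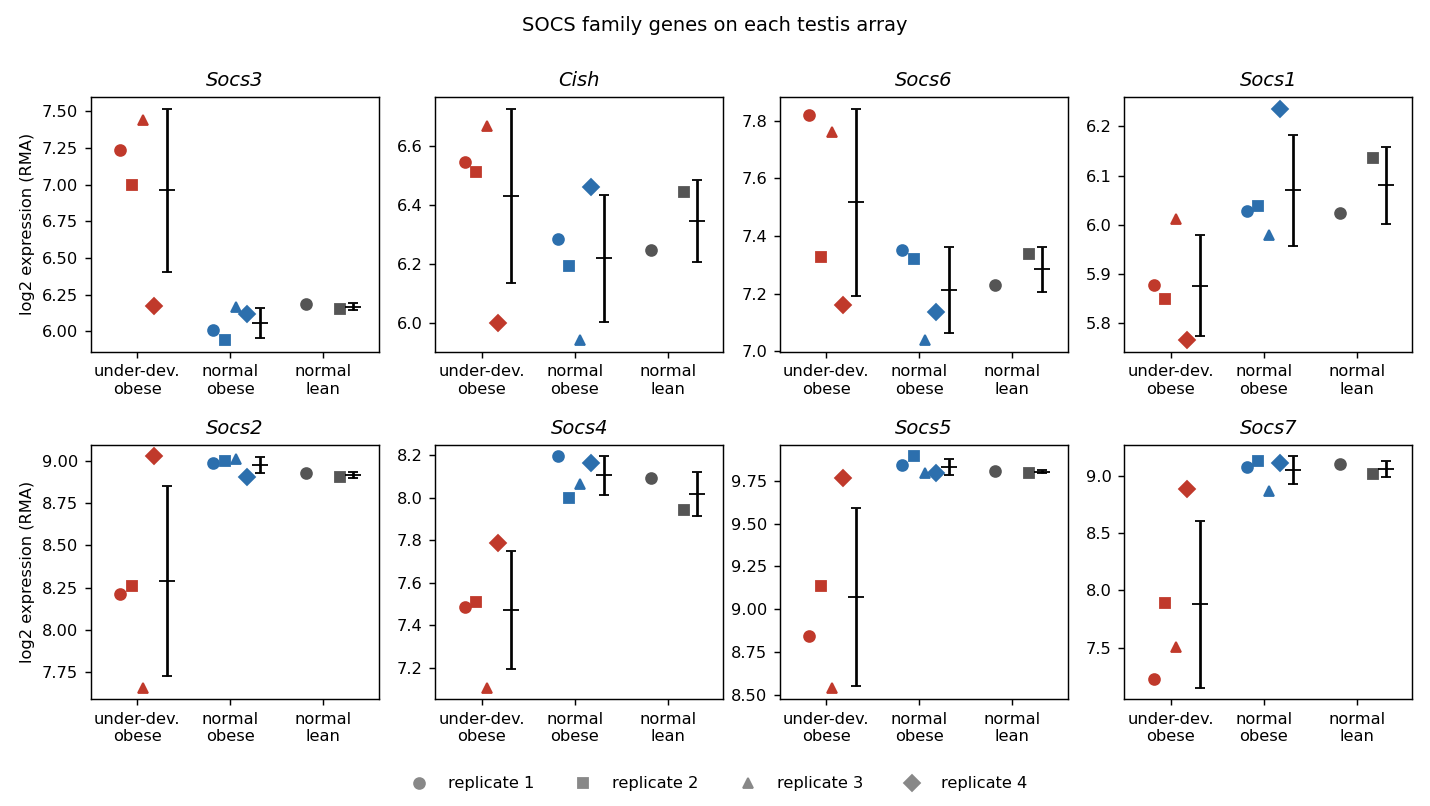
Log2 expression (RMA) of each SOCS gene on each array, in under-developed obese (red), normal obese (blue) and normal lean (grey) testes, with marker shapes for replicates 1 to 4 and the mean ± SD of each group beside its points. Under-developed replicates 1 to 3 lie apart from the normal arrays for Socs3, Socs2, Socs4, Socs5 and Socs7, and replicate 4 lies near them, for Socs4 at 7.79 between the other under-developed arrays and the normal ones.

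Among the members that STATs induce, Socs3 had the largest positive difference. It binds JAK kinases and gp130-type receptors and stops their signalling. Its log2 values were 7.24, 7.0, 7.44 and 6.18 in under-developed replicates 1 to 4, against 6.01, 5.94, 6.17 and 6.12 in normal obese replicates 1 to 4 and 6.18 and 6.15 in normal lean replicates 1 and 2. The first 3 under-developed arrays lay above every normal array, and replicate 4 lay within the range of the normal ones. Against the normal obese mean the differences were 1.18, 0.94, 1.39 and 0.12 log2, which for replicates 1 to 3 average to 2.25-fold higher. The fitted difference was 0.90 ± 0.24 log2 (SE, limma adjusted p = 0.0702) with all arrays and 1.17 ± 0.12 (limma adjusted p = 0.000139) without replicate 4. The difference over replicates 1 to 3 was above that of 88.8% of all genes. Socs3 was dim in the normal testes, with a normal obese mean of 6.06, below the array medians of 6.14 to 6.38. A filter on dim genes dropped it, along with Socs1 and Cish. With an offset of 50 added to the unlogged values, the difference with all arrays was 0.60 ± 0.17 log2 (SE, limma adjusted p = 0.0776).

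Cish, which blocks STAT5 docking on cytokine receptors and whose upstream window held the 4 STAT motifs, had a small difference. Its values were 6.55, 6.51, 6.67 and 6.0 in under-developed replicates 1 to 4, against 6.28, 6.19, 5.94 and 6.46 in normal obese replicates 1 to 4 and 6.25 and 6.44 in the lean testes. Under-developed replicates 1 to 3 lay above the highest normal array by a small margin, and replicate 4 was near the lowest. In limma the difference was 0.21 ± 0.17 log2 (SE, limma adjusted p = 0.353) with all arrays and 0.36 ± 0.13 (limma adjusted p = 0.0478) without replicate 4. The normal obese arrays alone had an SD of 0.22 for Cish, the widest of the 8 genes, and this call was lost when arrays were centred on their median (limma adjusted p = 0.153).

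Socs1, the strongest JAK inhibitor of the family and a brake on interferon signalling, had values of 5.88, 5.85, 6.01 and 5.76 in under-developed replicates 1 to 4, against 6.03, 6.04, 5.98 and 6.24 in normal obese replicates 1 to 4 and 6.02 and 6.14 in the lean testes. The groups overlapped, and the lowest value of all was that of under-developed replicate 4. The model gave −0.19 ± 0.10 log2 (SE, limma adjusted p = 0.159) with all arrays and −0.16 ± 0.10 (limma adjusted p = 0.224) without replicate 4, so Socs1 did not pass either way.

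Socs2, the brake on growth hormone signalling, went the other way from Socs3. Its values were 8.21, 8.26, 7.66 and 9.03 in under-developed replicates 1 to 4, against 8.99, 9.0, 9.01 and 8.91 in normal obese replicates 1 to 4 and 8.93 and 8.91 in the lean testes. Under-developed replicates 1 to 3 lay below every normal array. Replicate 4 lay narrowly above every one of them, at 9.03 against a highest normal value of 9.01, and 0.05 log2 over the normal obese mean. The normal arrays spanned only 0.11 log2. The estimate was −0.69 ± 0.24 log2 (SE, limma adjusted p = 0.0716) with all arrays and −0.93 ± 0.15 (limma adjusted p = 0.000853) without replicate 4.

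The 4 members known mainly outside the JAK pathway were not uniform either. Socs4 and Socs5, a pair of related proteins with long N-terminal regions that act on the epidermal growth factor receptor, were both lower. Socs5 had values of 8.84, 9.13, 8.54 and 9.77 in under-developed replicates 1 to 4, against 9.84, 9.90, 9.80 and 9.79 in normal obese replicates 1 to 4 and 9.81 and 9.80 in the lean testes. The groups did not overlap, although replicate 4 lay only 0.07 log2 below the normal obese mean. The fit gave −0.76 ± 0.23 log2 (SE, limma adjusted p = 0.0702) with all arrays and −0.99 ± 0.14 (limma adjusted p = 0.000432) without replicate 4.

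Socs4 was the member in which replicate 4 moved furthest with the other under-developed arrays. Its values were 7.49, 7.51, 7.11 and 7.79 in under-developed replicates 1 to 4, against 8.20, 8.0, 8.06 and 8.16 in normal obese replicates 1 to 4 and 8.09 and 7.95 in the lean testes. All 4 under-developed arrays lay below all 6 normal arrays, replicate 4 by 0.32 log2 under the normal obese mean, and the SD of the normal obese arrays was 0.09. The difference in limma was −0.63 ± 0.14 log2 (SE, limma adjusted p = 0.0702) with all arrays and −0.74 ± 0.12 (limma adjusted p = 0.00119) without replicate 4. Replicate 4 lay below all 6 normal arrays for 3 of the 8 members (Socs1, Socs4 and Socs5) and above them for Socs2, beside 18.6% and 17.8% of all genes.

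Socs7, which binds insulin receptor substrates and the adaptor NCK, had the largest fall. Its values were 7.23, 7.89, 7.51 and 8.88 in under-developed replicates 1 to 4, against 9.08, 9.13, 8.87 and 9.11 in normal obese replicates 1 to 4 and 9.10 and 9.01 in the lean testes. Replicates 1 to 3 lay far below the normal arrays and averaged 2.83-fold lower, while replicate 4 lay just above the lowest normal array. Only 9.45% of all genes had a lower difference over replicates 1 to 3. Its fitted difference was −1.17 ± 0.31 log2 (SE, limma adjusted p = 0.0702) with all arrays and −1.5 ± 0.16 (limma adjusted p = 0.000137) without replicate 4.

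Socs6, which binds the KIT receptor and insulin receptor substrates, was the one of these 4 that was not lower. Its values were 7.82, 7.33, 7.76 and 7.16 in under-developed replicates 1 to 4, against 7.35, 7.32, 7.04 and 7.14 in normal obese replicates 1 to 4 and 7.23 and 7.34 in the lean testes. Replicates 1 and 3 lay above every normal array, and replicates 2 and 4 lay within their range. The limma estimate was 0.31 ± 0.17 log2 (SE, limma adjusted p = 0.173) with all arrays and 0.42 ± 0.14 (limma adjusted p = 0.033) without replicate 4, and this call too was lost after median centring (limma adjusted p = 0.0874).

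**Figure D2:**
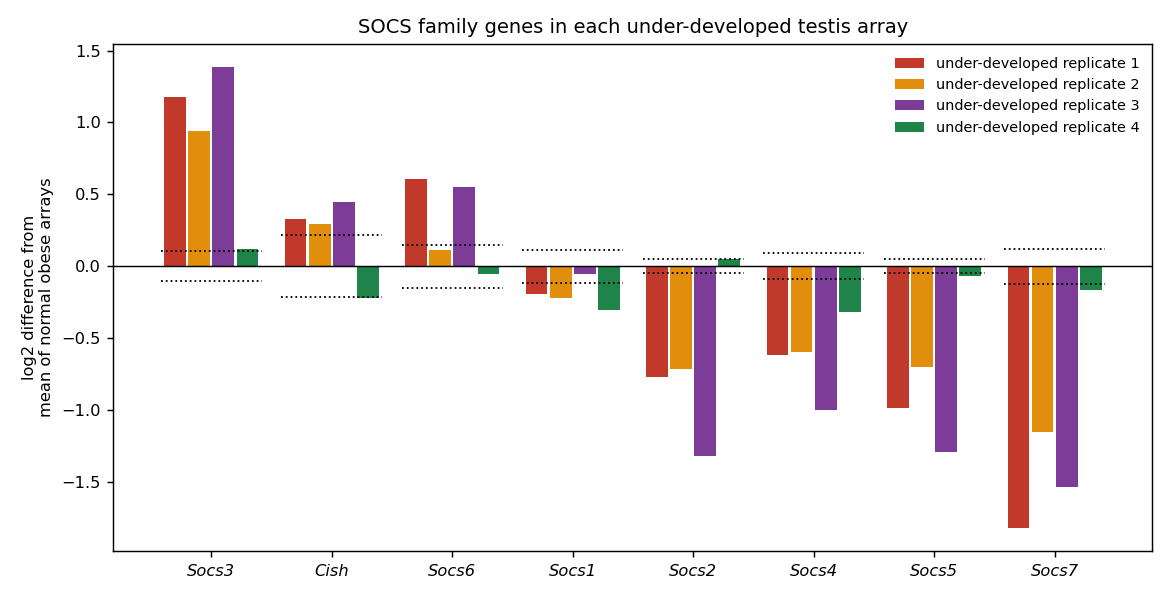
Log2 difference of each under-developed array (bars, replicates 1 to 4) from the average normal obese array for each SOCS gene, with dotted lines at ± 1 SD of the normal obese arrays. Socs3 bars reach 1.18, 0.94 and 1.39 in replicates 1 to 3 and Socs7 bars −1.82, −1.15 and −1.53, while the replicate 4 bars stay between −0.32 (Socs4) and 0.12 (Socs3).

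By array, the order of the under-developed testes was not the same for each member. Replicate 3 was the furthest from the normal obese mean for Socs2 (−1.32 log2), Socs3 (1.39), Socs4 (−1.0), Socs5 (−1.29) and Cish (0.45). Replicate 1 was the furthest for Socs7 (−1.82) and Socs6 (0.61), and replicate 4 for Socs1 (−0.30). At least 2-fold differences were reached in replicate 1 by 1 member upward (Socs3) and 1 downward (Socs7), beside 15.5% and 15.6% of all genes. In replicate 2 they were reached by 0 members upward and by Socs7 downward, beside 7.56% and 6.18%, and in replicate 3 by Socs3 upward and by Socs2, Socs5 and Socs7 downward, beside 19.2% and 16.8%. In replicate 4 no member reached 2-fold in either direction, where 0.0385% of all genes were that much higher and 0.0055% that much lower.

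Members without overlap were counted by direction, and with so few members such counts say little about the family as such. All 4 under-developed arrays lay above all 4 normal obese arrays for 1 member (Socs3) and below them for 2 (Socs4 and Socs5), beside 7.44% and 10.4% of all genes, and each of the 3 had p = 0.0286 in a two-sided exact permutation test, unadjusted, the smallest that 4 against 4 arrays allow. For Socs3 the margin was narrow, with 6.18 in under-developed replicate 4 and 6.17 in normal obese replicate 3. Set against all 6 normal arrays, under-developed replicates 1 to 3 lay wholly above for Socs3 and Cish and wholly below for Socs2, Socs4, Socs5 and Socs7, beside 28.7% and 26.7% of all genes.

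The direction of the members that were higher depended on how the arrays were scaled. Without replicate 4, centring each array on its median left Socs3 higher and Socs2, Socs4, Socs5 and Socs7 lower (24.7% and 29.8% of all genes were called higher and lower), and a further quantile normalization called the same members (27.8% and 25.3%). With arrays centred on 71 ribosomal protein genes, Socs3 was higher by 0.51 ± 0.11 log2 (SE, limma adjusted p = 0.00229), and Socs1 joined the 4 that were lower, where 13.5% of all genes were higher and 66.9% lower. Relative to 10 Sertoli cell markers, no member was higher, 7 were lower, and Socs3 differed by −0.11 ± 0.11 log2 (SE, limma adjusted p = 0.362), where 5.62% of all genes were higher and 85.5% lower. Cish and Socs6 had negative differences on the last 2 scales, and Socs2, Socs4, Socs5 and Socs7 were lower on every one. The scale itself moved the median of all genes, which was 0.07 log2 as deposited, −0.59 with ribosomal centring and −1.21 with Sertoli centring.

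**Figure D3:**
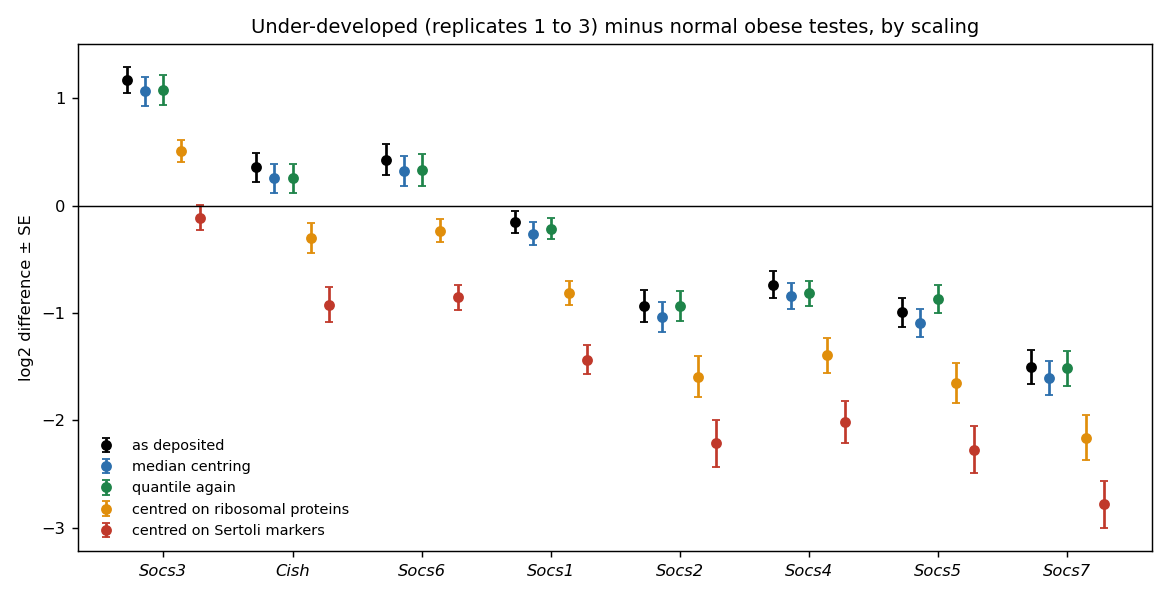
Fitted log2 difference ± SE of each SOCS gene between under-developed replicates 1 to 3 and the 4 normal obese arrays, with the deposited values and with 4 other scalings of the arrays. Socs7 lies below 0 on each scale, whereas Socs3 goes to −0.11 when arrays are centred on Sertoli markers.

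Marker lists of the cells of the testis are set beside these values, and each list difference below is from the normal obese mean. Some lists were mixed. With all arrays limma called 0 markers of any list, as it called 0 of all genes. Without replicate 4 and on the deposited scale, limma called 11 macrophage markers higher and 1 lower, and 7 Sertoli markers higher and 1 lower. It called 3 lymphocyte markers higher and 1 lower, and 3 spermatogonial markers higher and 3 lower. No gene of the other lists was called against the direction of its list. Of all genes 29.6% were called higher and 26.4% lower. The macrophage list (12 of 12 genes measured) had a mean log2 level of 6.96 to 9.18 in under-developed, 6.77 to 7.21 in normal obese and 6.72 to 6.94 in normal lean testes, and differed from the normal obese mean by 2.16, 1.32, 2.06 and −0.05 in under-developed replicates 1 to 4. The Sertoli list (10 of 12) differed by 1.33, 1.02, 1.49 and 0.09, and ranged from 7.80 to 9.20 in under-developed, 7.62 to 7.79 in normal obese and 7.61 to 7.75 in normal lean testes. Both lists were higher in the same 3 arrays in which Socs3 was higher, as were the Leydig cell, peritubular myoid and endothelial lists given below. In those 3 arrays 28.7% of all genes lay wholly above the 6 normal arrays. The spermatocyte list (10 of 10) differed by −2.38, −0.69, −3.72 and 0.02, and ranged from 6.57 to 10.31 in under-developed, 10.23 to 10.36 in normal obese and 10.25 to 10.32 in normal lean testes. Spermatid markers differed by −2.67, −0.81, −4.12 and −0.05, and lymphocyte markers (8 of 9) by 0.55, 0.11, 0.44 and 0.05. Leydig cell markers (7 of 8) differed by 1.41, 0.80, 1.59 and −0.27, peritubular myoid markers (4 of 6) by 1.17, 0.92, 1.88 and −0.30, endothelial markers (4 of 6) by 1.33, 0.96, 1.42 and −0.03, and spermatogonial markers (8 of 8) by 0.12, 0.04, 0.21 and −0.10. The spermatocyte and spermatid lists were lowest in replicate 3, as were Socs2, Socs4 and Socs5. The spermatogonial list was highest in replicate 3, and Socs7 was lowest in replicate 1. The log2 scale has no 0, so no marker can be called absent, and the part of these cell types in the SOCS values was not tested.

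Genes that surround the SOCS proteins were set beside them by role, from lists chosen with earlier results of these data known, and 0 of them passed with all arrays. Rises depend on how the arrays are scaled, and these lists were not counted on other scales. Without replicate 4 the median of all genes was −0.59 log2 with ribosomal centring and −1.21 with Sertoli centring. The counts that follow are from the fit without replicate 4 on the deposited scale. There 29.6% of all genes rose and 26.4% fell, with a median of 0.07 log2. In that fit 14 of 20 measured JAK-coupled receptors rose, 2 fell (Cntfr and Ifnar1) and 4 did not pass, with a median of 1.22 log2. The oncostatin M receptor gene Osmr, in log2 and in the order of under-developed replicates 1 to 4, differed by 4.46, 3.54, 4.34 and 0.01, the receptor gene Il13ra1 by 3.35, 2.26, 3.13 and −0.34, and Il10rb by 3.22, 2.27, 2.91 and −0.07. All 9 measured JAK and STAT genes rose, with a median of 1.68 log2. Stat3, which drives Socs3, differed by 3.11, 2.34, 3.13 and −0.12, Jak2 by 3.12, 2.26, 3.12 and −0.17, and Stat5b, a driver of Cish and Socs2, by 2.07, 1.37, 2.51 and −0.70.

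Of 16 measured ligands of those receptors, 1 rose (Lif), 3 fell (Il11, Cntf and Ifng) and 12 did not pass, and the median was −0.08 log2. Il11, a cytokine of the interleukin-6 family, differed by −2.08, −1.25, −2.44 and 0.05, and Cntf, of the same family, by −1.31, −0.87, −1.20 and 0.11. Ifng, interferon gamma, differed by −0.58, −0.60, −0.70 and 0.03. Of the measured STAT targets other than SOCS genes, 6 of 11 rose, 2 fell (Bcl2l1 and Pim1) and 3 did not pass. Their median was 1.14 log2. The growth factor gene Igf1 differed by 2.35, 1.76, 2.44 and 0.03, the immediate early gene Junb by 1.94, 1.71, 2.55 and −0.01, and Irf1, an interferon response factor, by 2.32, 1.27, 2.3 and 0.25.

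Of 12 other brakes on the pathway, 5 rose, 5 fell and 2 did not pass, with a median of −0.05 log2. The tyrosine phosphatase gene Ptpn11 differed by 2.36, 1.65, 2.66 and −0.30, the STAT inhibitor gene Pias4 by −2.46, −1.58, −3.94 and −0.03, and the ubiquitin ligase gene Cbl by −1.51, −1.06, −1.58 and 0.03. Of 6 partners with which the SOCS box builds a ubiquitin ligase, 2 rose (Eloc and Rbx1), 0 fell, and Elob, Cul2, Cul5 and Rnf7 did not pass, with a median of −0.25 log2. Eloc, the elongin C that binds the SOCS box, differed by 0.66, 0.54, 0.68 and −0.06. Rnf7, a RING subunit, differed by −0.36, 0.06, −0.72 and −0.33, and Rbx1, another, by 0.25, 0.41, 0.35 and −0.18. Among 22 other proteins with a SOCS box, 3 rose, 13 fell and 6 did not pass, with a median of −0.61 log2, and Asb17, a testis gene, differed by −4.12, −1.70, −6.30 and −0.08. Asb1 differed by −2.92, −1.58, −4.18 and −0.18, and Asb9 by −2.43, −1.31, −3.74 and −0.26.

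**Figure D4:**
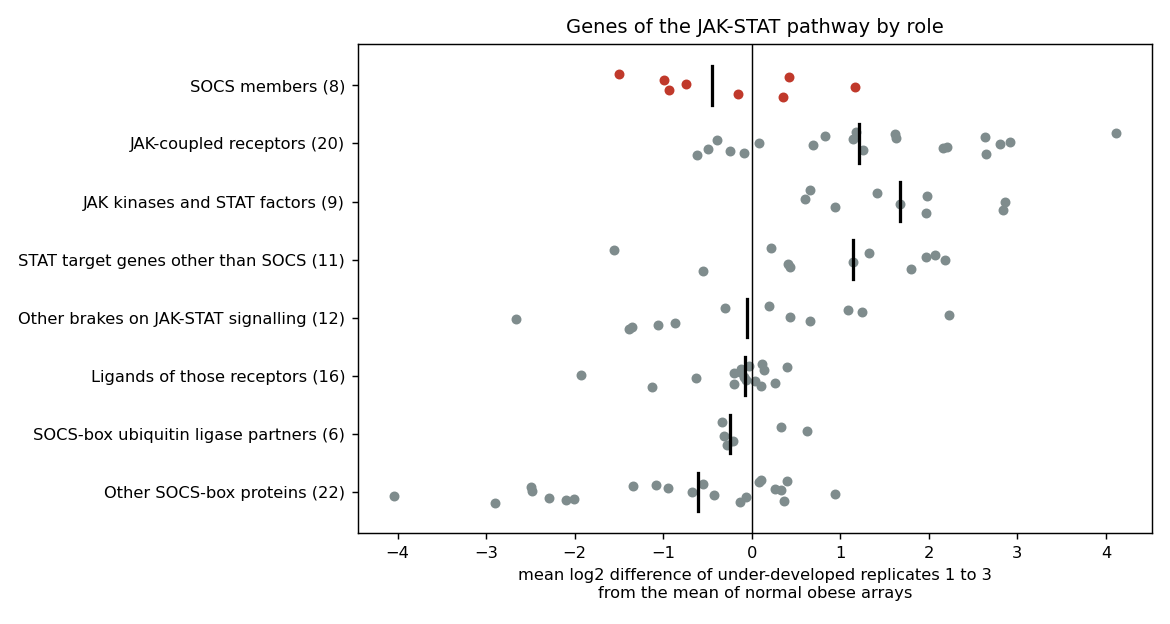
Mean log2 difference of under-developed replicates 1 to 3 from the mean of normal obese arrays for each measured gene (points) of the SOCS family (red) and of 7 lists of the pathway (grey), with the number of genes in brackets and black bars at the medians. JAK-coupled receptors and JAK and STAT genes lie mostly to the right of 0, with Osmr at 4.12, while other SOCS-box proteins reach −4.04 (Asb17).

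Normal testes of obese and lean rats, which bear on obesity without under-development, showed no SOCS gene apart. Of the 8, 0 passed in limma at an adjusted p under 0.05 (0.0% of all genes did) and 0 had an unadjusted p under 0.05 (0.44% of all genes). The differences ran from −0.13 ± 0.21 log2 (SE) for Cish to 0.09 ± 0.18 for Socs4, and every member had a limma adjusted p = 1.00. For Socs3, the leptin receptor brake, the normal obese arrays averaged 6.06 ± 0.10 (SD, n = 4) and the lean arrays 6.17 ± 0.02 (SD, n = 2), a difference of −0.11 ± 0.30 log2 (SE). The groups were free of overlap for 0 of the 8 members, beside 15.0% of all genes. Those errors draw on the spread of all 3 groups, the scattered under-developed arrays included. With only the obese and lean normal arrays fitted, the SE for Socs3 was 0.084 log2 and 6.28% of all genes had an unadjusted limma p under 0.05, still with 0 of the 8 members among them, and 1 gene (0.0055%), not a member, passed after adjustment. Limma adjusted p of the members was then 0.852 to 0.993. With 2 lean arrays, a two-sided exact permutation test cannot go below p = 0.133.

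Set against the lean testes, the under-developed testes of obese rats gave wider errors, and the comparison shares its under-developed arrays with the one above. With all arrays 0 members passed in limma (0.0% of all genes), and 4 (Socs3, Socs4, Socs5 and Socs7) had an unadjusted p under 0.05, beside 31.8% of all genes. Without replicate 4, 1 member was higher (Socs3, 1.06 ± 0.15 log2, SE, limma adjusted p = 0.000718) and 4 were lower (Socs2, Socs4, Socs5 and Socs7), where 25.6% and 23.2% of all genes were. Socs7 differed by −1.18 ± 0.38 log2 (SE, limma adjusted p = 0.154) with all arrays. Without replicate 4, Cish and Socs6 did not pass on the deposited scale (limma adjusted p = 0.272 and 0.125), and both were lower on other scales. With ribosomal centring Cish differed by −0.51 ± 0.16 log2 (SE, limma adjusted p = 0.0191) and Socs6 by −0.38 ± 0.12 (limma adjusted p = 0.0198). On that scale Socs3 was higher and the other 7 members lower, beside 11.6% and 67.7% of all genes. With Sertoli centring 0 members were higher and 7, all but Socs3, were lower, beside 5.49% and 84.2% of all genes.

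Among the members themselves, patterns over the 10 arrays were compared by correlation. Pearson's r was 0.98 between Socs2 and Socs5, 0.97 between Socs5 and Socs7 and −0.99 between Socs3 and Socs5, whereas Socs1 had an r between −0.37 and 0.46 with every other member. These values rest on the 3 under-developed arrays that stand apart from the other 7 and are given as descriptions. The named genes outside the family most like Socs3 were Scara3 (r = 0.996), Tprkb (0.996) and Usp33 (0.996), of which Scara3 had log2 differences of 2.61, 2.14, 3.04 and 0.14 across the under-developed arrays. Those most like Socs5 were Med19 (r = 0.999), Nup153 (0.998) and Ncbp1 (0.998), those most like Socs7 were Mrps27 (0.998), Cfap410 (0.997) and Cimap1b (0.996), and those most like Socs2 were Myo5b (0.996), Spata31e1l1 (0.995) and Cand1 (0.994). Socs4 was nearest to Pa2g4 (0.980), Trpt1 (0.979) and Zfp511 (0.976), and Socs6 to Lrg1 (0.971), Atp5mgl3 (0.971) and Suox (0.968). The members with small differences had less close partners, with Yrdc (0.962), Nlrp1a (0.932) and Hhipl1 (0.928) for Cish and Scn9a (0.935), Or14j15 (0.878) and Rab40c (0.849) for Socs1.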

How the data were processed

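The authors deposited log2 expression for each probe set, and RMA is the tool in the submitters' processing notes. Settings, software version and genome build are not given in the sources used here, and scanner files were not used here. Array medians were 6.14 to 6.38. Per the labels' protocols, Trizol RNA was labelled with the WT PLUS kit.

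Of 36685 probe sets, 18511 carried 1 symbol, 575 several, and 17599 had none here. The RefSeq table of GRCr8 gave current symbols by gene number (18394 matched), and the brightest probe set per gene was kept, with no filter on dim genes. Groups came from the sample titles. All 18166 genes entered 1 linear model with a mean per group (limma 3.58.1, run under R 4.3.3, moderated by eBayes), with Benjamini-Hochberg adjustment over all genes at 0.05. The fit was tested on simulated data, with the spread of the normal arrays and an equal shift in every under-developed array. There it recovered 99% of the genes changed by 1 log2 and 100% of those changed by 3, with 12 false calls. The simulation held no array like under-developed replicate 4 and no wider under-developed spread. It therefore does not show how the fit performs on these data. Single arrays were set against the normal obese mean. Plots used matplotlib 3.10.9, permutation tests scipy 1.17.1, and summaries pandas 2.3.3 with numpy 2.4.6 (Python 3.11.15).

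Members, lists and tests were chosen with earlier results of these data known. The text names all 8 members, up to 3 genes per list with the largest mean difference over under-developed replicates 1 to 3 (Rnf7 and Rbx1 among them), list genes behind small counts, chosen after their values were seen, and the 3 genes most like each member by Pearson's r, leaving out symbols that are only locus numbers. Alternatives covered scaling, background, filters, probe sets, variance models, the samples fitted, replicate numbers and leaving out each array. Those that combine another choice with leaving out under-developed replicate 4 were added after seeing the data.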

Additional observations from a re-analysis of the deposited data

How the results depend on the processing

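With under-developed against normal obese testes, the count of members called (0 with all arrays) was 7 with arrays centred on Sertoli markers, all lower, where 13833 of all genes were called against 0, and 6 with array weights (2 higher, 4 lower, and 9862 of all genes). It ranged from 0 to 7 when each array was left out in turn, with the 7 reached only without under-developed replicate 4, and was 3 by unadjusted exact permutation p. Without that array it was 5 after median centring, after quantile normalization, with the filter on dim genes (which drops Socs1, Socs3 and Cish) and with the replicate block, 6 with ribosomal centring, and 7 with Sertoli centring, with an offset of 50 and with trend and robust moderation. Against lean testes (0 with all arrays) the count was 5 with array weights and ranged from 0 to 5 over the arrays left out, 5 only without under-developed replicate 4. Without that array it was 8 with ribosomal centring (1 higher, 7 lower), 7 with Sertoli centring, 4 with the filter on dim genes, and 5 with median centring, quantile normalization, the offset, trend and robust moderation, and the replicate block. Between normal obese and lean testes it was 0 under every alternative run.

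The sign turned as follows. For under-developed against normal obese testes, ribosomal centring gave −0.16 for Socs6 and −0.26 for Cish with all arrays, and −0.23 and −0.30 without replicate 4. Sertoli centring gave −0.078 for Socs3, −0.68 for Socs6 and −0.77 for Cish, and −0.11, −0.86 and −0.92 without replicate 4. Against lean testes, ribosomal centring gave −0.31 for Socs6 and −0.46 for Cish, Sertoli centring −0.21 for Socs3, −0.78 for Socs6 and −0.92 for Cish, while without replicate 4 ribosomal centring gave −0.38 for Socs6 and −0.51 for Cish, and Sertoli centring −0.25 for Socs3, −0.95 for Socs6 and −1.08 for Cish. Also against lean testes, median centring gave −0.0087 for Cish, which ranged from −0.012 to 0.23 over the arrays left out. Between normal obese and lean testes, Socs1 was 0.0072 after quantile normalization and ranged from −0.066 to 0.046 over the arrays left out, Socs7 ranged from −0.06 to 0.050, Socs2 and Socs5 were −0.018 and −0.047 with ribosomal centring, Socs6 was 0.018 with the replicate block, and Socs7 was 0.016 with that block and no under-developed replicate 4. The cause was not tested.

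No pairing of the samples by replicate number was detected, and the check cannot exclude one. In the under-developed group replicate 4 stands apart from the rest, and the 2 lean arrays deviate from their mean as mirror images. Deviations from the group means correlated between −0.056 and 0.26 over 8 same-numbered pairs, 3 of them over 0.1. Of 8 arrays of the obese groups, 2 correlated best with their own number, namely replicate 4 of each group (r = 0.26). With the replicate block and all arrays 0 members were called. Precision is limited by how few arrays there are, with 2 for lean rats.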
